A study of Mus musculus with 8 samples.

Results

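Genes of liver macrophages were compared between female mice that carried dihydrotestosterone (DHT) and female mice that carried an empty pellet, all on a Western diet (WD). The list holds 34 genes, taken by symbol: 9 that mark resident Kupffer cells, 11 that mark lipid-associated macrophages, 3 that mark recruited, monocyte-derived cells and 11 that macrophages share in general. Of these, 32 were matched by Ensembl identifier among the 14317 mouse genes measured, and all 32 entered the test, which took genes with a mean normalized read count of at least 10. Cx3cr1 (recruited) and Mmp12 (lipid-associated) are not analysed here. The livers of 4 mice per group were sequenced, each as a library of its own. Both were control groups in the study's methods, and the labels give their genotype as WT. From 7 weeks of age the Con-DHT mice carried a silastic pellet filled with 10 mm of DHT, an androgen that cannot be turned into estrogen, and the Con-Veh mice an empty one. The WD and the pellets lasted 8.5 weeks, the methods describe an overnight fast before the mice were killed, and the study asked with these libraries how androgen excess reshapes gene expression in the female liver.

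Kupffer cells are the macrophages that live in the liver sinusoids, where they take up bacteria, dying red cells, lipoproteins and cell debris from portal blood. They are founded before birth, renew in place, depend on signalling through the CSF1 receptor and carry receptors such as CLEC4F, VSIG4 and TIM-4 that few other cells have. In steatotic liver disease some of them are lost and replaced from blood monocytes, and another kind, the lipid-associated macrophage, appears with TREM2, CD9, GPNMB and osteopontin and a large lysosomal apparatus.

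The values are reads per gene after scaling by the library's size factor, called normalized read counts below. The reads on mouse genes that they rest on ranged from 13123962 to 17815944 per library (medians 15439690 in Con-Veh and 14375913 in Con-DHT), and 3 reads are worth 2.61 to 3.30. Member genes ranged from 3 reads, for Itgam in 1 liver, to 4684 reads, for Ctsd in 1 liver. The tissue was whole liver, so that fewer macrophages and less RNA per macrophage cannot be told apart in any of the values that follow. The defining Kupffer cell markers were all detected in every liver. Means are given ± SD over 4 livers, lists of values run from replicate 1 to 4 of each group, and log2 fold changes are Con-DHT minus Con-Veh on the log2(value + 1) scale with limma's standard error (SE) and a Benjamini-Hochberg adjusted p over 14312 genes.

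Most macrophage genes had lower levels in Con-DHT livers. Of the 32 members tested, 11 passed an adjusted p of 0.05 and all 11 were lower in Con-DHT, namely Cd5l, Vsig4, Folr2 and Clec4f of the resident markers, Lgals3 and Atp6v0d2 of the lipid-associated markers, and Lyz2, Ctss, Cd68, Fcer1g and Mpeg1 of the shared ones. Over all genes tested, the share called lower in Con-DHT was 2.61%, the share called higher was 4.60% and the share called in either direction was 7.21%. The log2 fold change was below 0 for 29 of the 32 members, against 51.5% of all genes, and above 0 for Ctsk, Gpnmb and Spp1, which did not pass. The median log2 fold change of the members was -0.45, where that of all genes was -0.0081. The members' summed level in Con-DHT was 74.3% of that in Con-Veh, against 94.0% for the sum over all genes tested. Ctsd, Cd5l and Clec4f, the members with the highest read counts, weigh most in the members' sum. In 14 members every Con-DHT liver was below every Con-Veh liver, an arrangement that 6.62% of all genes had, and no member had the opposite arrangement, which 8.49% of all genes had. EdgeR's quasi-likelihood test on the recovered reads called 11 members, all lower (2.46% of all genes), and DESeq2 called 13, all lower (4.51% of all genes). The direction of the 11 called genes was the same under every alternative and with each library left out, but their calls depended on the scaling. When the libraries were scaled by the synthetic ERCC spike-ins, the log2 fold change of the median gene moved to 0.19 and the members' median to -0.26. Such scaling moves every gene by about the same amount. The members' distance from the median gene, -0.44 with either scaling, was therefore fixed beforehand and lends no support. Below 0 were 25 of the 32 members. Atp6v0d2 alone passed and was lower, with 0.524% of all genes called lower and 3.93% called higher. The spike-ins took 1.68% to 3.61% of the reads, with both extremes in Con-Veh, and under this scaling the SE of Lyz2 rose from 0.08 to 0.30.

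**Figure D1:**
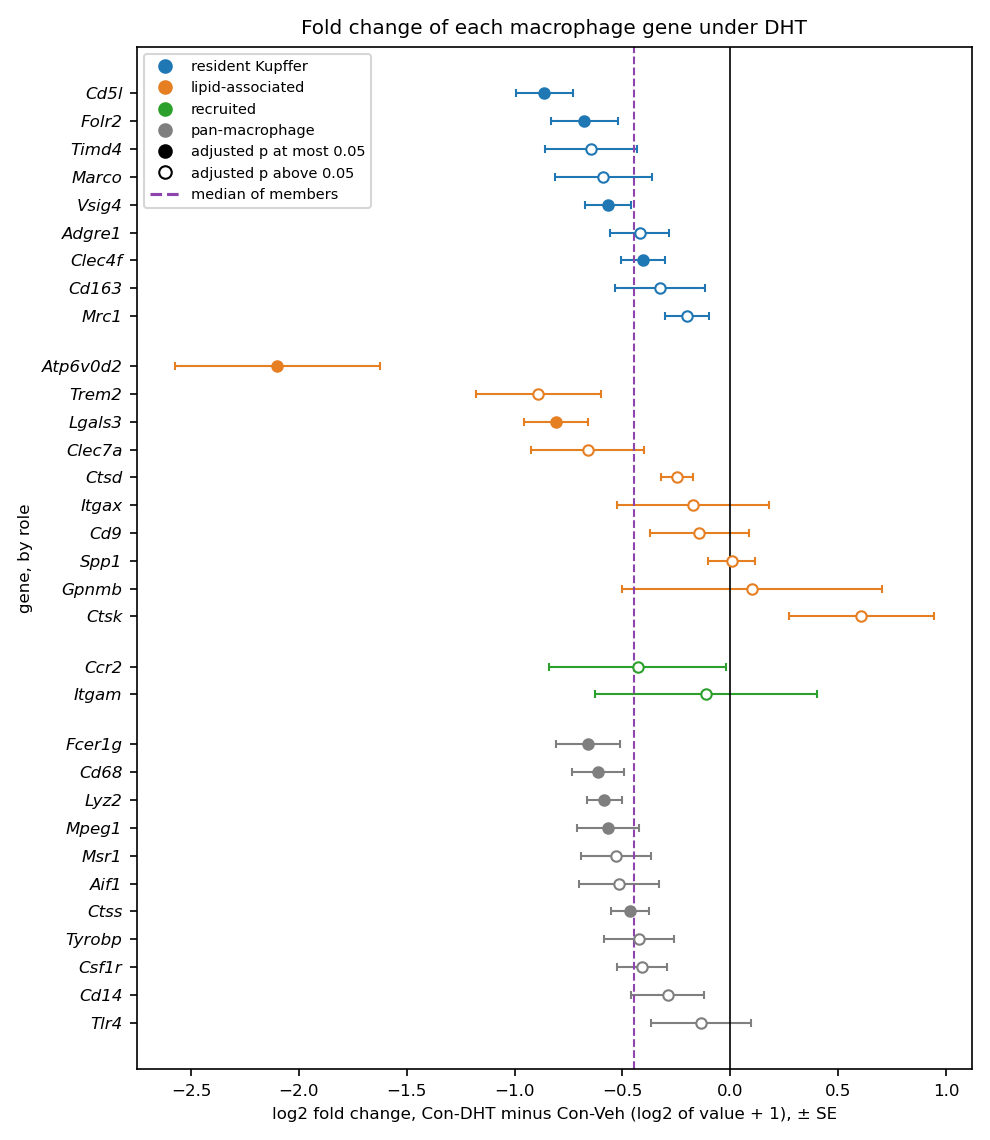
Log2 fold change of each of the 32 macrophage genes, Con-DHT minus Con-Veh on the log2(value + 1) scale, grouped by role. Points are limma estimates, bars are ± SE, filled points have an adjusted p of at most 0.05 and the dashed line is the members' median of -0.45. All 11 filled points lie to the left of 0, and Atp6v0d2 lies farthest to the left at -2.10.

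Among the resident Kupffer cell markers, Cd5l, Folr2, Vsig4 and Clec4f fell and the other 5 did not pass, with all 9 log2 fold changes below 0 (median -0.57). Under spike-in scaling all 9 were below 0 with a median of -0.37, and 0 were called. Cd5l (ENSMUSG00000015854, chromosome 3) encodes a secreted scavenger protein, also known as the apoptosis inhibitor of macrophages, that Kupffer cells release into plasma. Its normalized read count was 2936, 3162, 2309 and 2661 in the Con-Veh livers and 1933, 1342, 1503 and 1338 in the Con-DHT livers. Every Con-DHT liver was below every Con-Veh liver, and the mean went from 2767 ± 368 to 1529 ± 279.9 (log2 fold change -0.86, SE 0.13, adjusted p = 0.00448). This was 55.3% of the Con-Veh level. Vsig4 (ENSMUSG00000044206, chromosome X) encodes the complement receptor with which Kupffer cells catch bacteria that carry C3 fragments. It stood at 465, 479, 437 and 473 in the Con-Veh livers and 389, 288, 287 and 295 in the Con-DHT livers. The groups did not overlap, the Con-Veh livers lay close together and Con-DHT 1 stood above the other Con-DHT livers, and the level fell to 67.9% of that in Con-Veh (log2 fold change -0.57, SE 0.11, adjusted p = 0.0115). Cd5l and Vsig4 were called with each of the 8 libraries left out in turn.

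Folr2 (ENSMUSG00000032725, chromosome 7), the folate receptor beta of tissue-resident macrophages, had normalized read counts of 177, 204, 169 and 176 in the Con-Veh livers and 152, 106, 109 and 91.3 in the Con-DHT livers. The groups did not overlap, with Con-DHT 1 again the highest of its group, and the gene fell to 63.3% of the Con-Veh level (log2 fold change -0.68, SE 0.15, adjusted p = 0.0269). The adjusted p was 0.0535 to 0.0782 without Con-Veh 1, 2 or 4 or Con-DHT 2, 3 or 4. An antisense gene, Gm10602, shares 63.1% of the exon bases of Folr2 in the GENCODE M21 annotation (GRCm38), and with a library kit that does not mark strand their reads cannot be told apart. Clec4f (ENSMUSG00000014542, chromosome 6), the galactose-binding C-type lectin that in mice marks Kupffer cells, had values of 2289.8, 2372, 2018 and 2579.7 in the Con-Veh livers and 2046, 1653, 1729.9 and 1576 in the Con-DHT livers. It fell to 75.6% of the Con-Veh level (log2 fold change -0.40, SE 0.10, adjusted p = 0.0387), but Con-DHT 1 lay above the lowest Con-Veh liver and the groups overlapped. Its adjusted p was 0.0729 to 0.10 without Con-Veh 1, 2 or 4 or Con-DHT 2, 3 or 4.

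The other resident markers had lower means in Con-DHT that did not pass the test. Timd4, the phosphatidylserine receptor TIM-4 of long-lived Kupffer cells, was 168, 207, 178 and 251 in the Con-Veh livers and 188, 101, 138 and 97.8 in the Con-DHT livers. Con-DHT 1 lay within the Con-Veh range and the other 3 Con-DHT livers lay below it (log2 fold change -0.65, SE 0.21, adjusted p = 0.0997), and without Con-DHT 1 the adjusted p was 0.0312. Marco, a scavenger receptor for bacteria and particles, ranged from 136 to 239 in Con-Veh and 84.2 to 159 in Con-DHT (log2 fold change -0.59, adjusted p = 0.15). Adgre1, which encodes the F4/80 antigen used to stain mouse macrophages, ranged from 238 to 320.4 in Con-Veh and 171 to 238 in Con-DHT, so that the highest Con-DHT liver met the lowest Con-Veh liver (log2 fold change -0.42, adjusted p = 0.0952). With a stain for this antigen on liver sections, the study reported that inflammation was unchanged by DHT in mice on the WD. How that stain relates to the read counts was not tested. Cd163, the receptor for haemoglobin bound to haptoglobin, ranged from 302 to 553 in Con-Veh and 237 to 389 in Con-DHT (log2 fold change -0.33, adjusted p = 0.40). Mrc1, the mannose receptor, which sinusoidal endothelial cells also express, ranged from 447 to 521 in Con-Veh and 345 to 457 in Con-DHT and had the smallest fold change of the 9 resident markers (log2 fold change -0.20, adjusted p = 0.27).

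**Figure D2:**
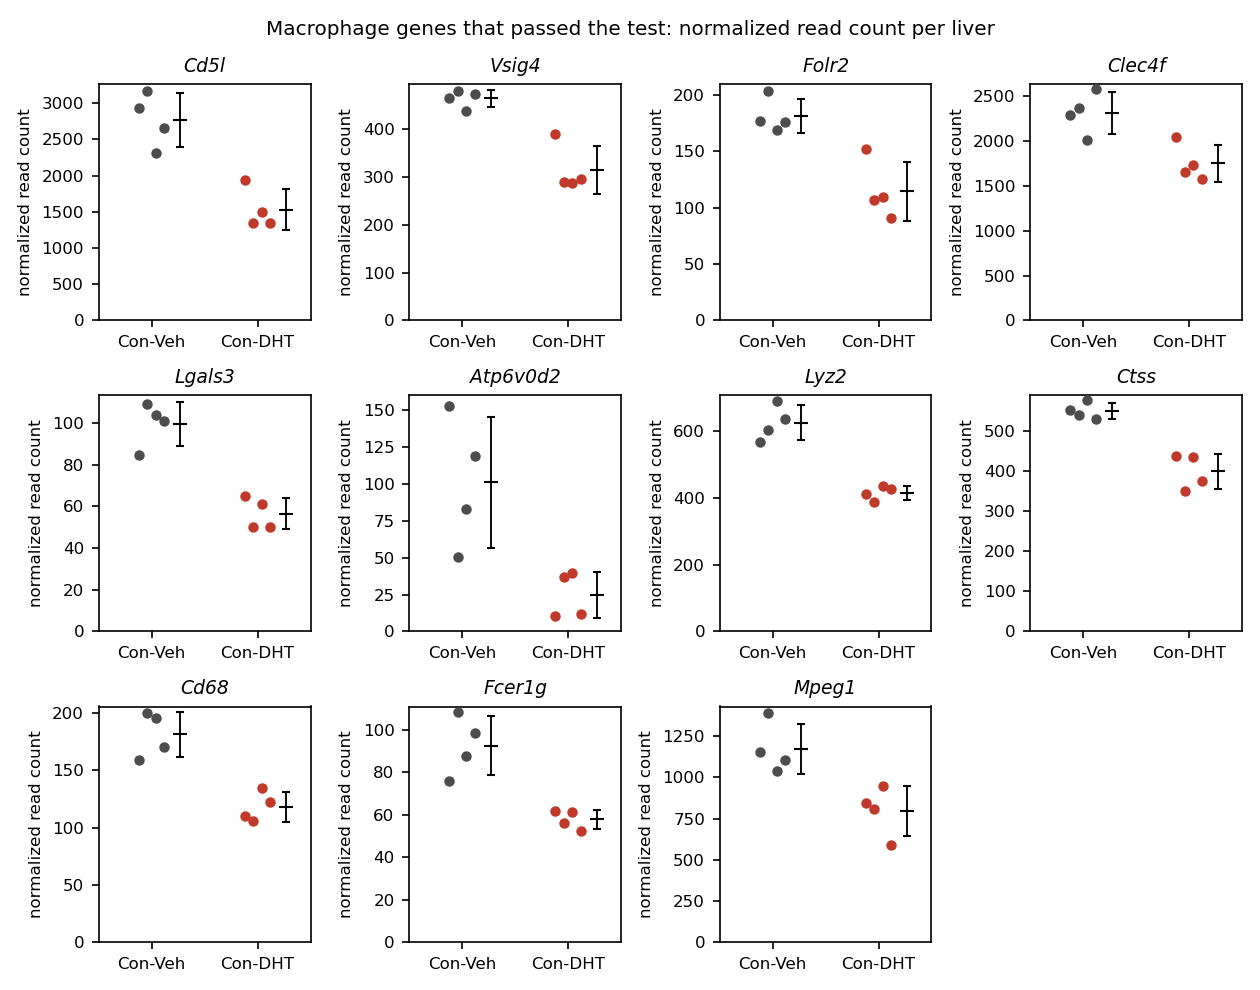
Normalized read count in each liver (vertical axes, starting at 0) of the 11 macrophage genes with an adjusted p of at most 0.05. Points are single livers of Con-Veh (grey) and Con-DHT (red), and the bars beside them are the mean ± SD of 4 livers. The groups are apart in every panel except that of Clec4f, where Con-DHT 1 lies at 2046 and the lowest Con-Veh liver at 2018.

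Of the lipid-associated markers, Lgals3 and Atp6v0d2 passed the test. These 2 of the 10 tested fell, where 2.61% of all genes were called lower, and the other 8 did not pass. In 5 of the 10 every Con-DHT liver was below every Con-Veh liver, as in 6.62% of all genes. Of the log2 fold changes 7 were below 0 (5 under spike-in scaling), and the median was -0.21 (-0.02 under spike-in scaling). Lgals3 (ENSMUSG00000050335, chromosome 14) encodes galectin-3, a lectin that macrophages make in quantity once they are activated or loaded with lipid. Its values were 84.6, 109, 104 and 101 in the Con-Veh livers and 64.8, 50.3, 61.2 and 50.004 in the Con-DHT livers. The highest Con-DHT liver lay well under the lowest Con-Veh liver, the level fell to 56.8% of that in Con-Veh (log2 fold change -0.81, SE 0.15, adjusted p = 0.0101), and the gene was called with each library left out. Atp6v0d2 (ENSMUSG00000028238, chromosome 4) encodes an isoform of the d subunit of the vacuolar proton pump that osteoclasts and lysosome-rich macrophages use. It had the largest fold change of the members, with values of 153, 50.2, 82.9 and 119 in the Con-Veh livers and 10.8, 36.8, 39.8 and 11.96 in the Con-DHT livers. The Con-Veh livers were widely spread, Con-DHT 1 and 4 were far below Con-DHT 2 and 3, and still every Con-DHT liver was below the lowest Con-Veh liver. The mean went from 101 ± 44.4 to 24.8 ± 15.6 (log2 fold change -2.10, SE 0.48, adjusted p = 0.0264), which is 24.5% of the Con-Veh level. Its adjusted p was 0.0512 to 0.0764 without Con-Veh 1, 3 or 4 or Con-DHT 1 or 4.

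Trem2, the lipid-sensing receptor after which these macrophages are often named, had values of 31.9, 28.95, 39.9 and 28.7 in the Con-Veh livers and 14.7, 17.4, 28.6 and 10.9 in the Con-DHT livers. Every Con-DHT liver was below every Con-Veh liver, by a narrow margin for Con-DHT 3, and the difference did not pass (log2 fold change -0.89, SE 0.29, adjusted p = 0.0966). Without Con-DHT 3 the adjusted p was 0.0343. Clec7a, the beta-glucan receptor Dectin-1, also had groups that did not overlap, at 73.98 to 104 in Con-Veh and 29.03 to 70.6 in Con-DHT (log2 fold change -0.66, adjusted p = 0.16). Ctsd, the lysosomal protease cathepsin D, which hepatocytes also make, was at 4142, 4267, 4251 and 4077 in the Con-Veh livers and 3169.9, 3663, 3815 and 3497 in the Con-DHT livers. These groups did not overlap either, but the level in Con-DHT was 84.5% of that in Con-Veh and the test was not passed (log2 fold change -0.25, SE 0.07, adjusted p = 0.0757), while DESeq2 gave an adjusted p of 0.0239. A neighbouring gene model on the same strand, Gm49369, shares 34.4% of the exon bases of Ctsd.

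The remaining lipid-associated markers showed no separation between the groups. Spp1 (osteopontin), which bile duct cells make as well, was 718, 776, 809.6 and 864 in the Con-Veh livers and 723, 782, 714 and 983 in the Con-DHT livers. The groups lay over each other and the means were 792 ± 61.3 and 801 ± 125 (log2 fold change 0.0066, SE 0.11, adjusted p = 0.98). Gpnmb, a lysosomal membrane glycoprotein of lipid-loaded macrophages, was 6.596, 12.5, 54.9 and 9.57 in the Con-Veh livers and 7.85, 13.5, 20.4 and 28.3 in the Con-DHT livers. The Con-Veh mean of 20.9 ± 22.8 rested on Con-Veh 3, which was above every other liver of both groups, and the Con-DHT mean was 17.5 ± 8.81. On the log2 scale the difference had the opposite sign to that of the means (log2 fold change 0.10, SE 0.60, adjusted p = 0.94), and it turned with the test and with the library left out. Ctsk, the collagen-degrading cathepsin K, was 9.89, 14.5, 14.97 and 15.7 in the Con-Veh livers and 28.5, 10.6, 28.6 and 22.8 in the Con-DHT livers. Con-DHT 1, 3 and 4 were above every Con-Veh liver and Con-DHT 2 lay among the Con-Veh livers (log2 fold change 0.61, SE 0.34, adjusted p = 0.32). The tetraspanin gene Cd9 ranged from 251 to 422 in Con-Veh and 225 to 461 in Con-DHT (log2 fold change -0.14, adjusted p = 0.76) and Itgax, which encodes CD11c, from 9.89 to 20.96 in Con-Veh and 9.78 to 23.5 in Con-DHT (log2 fold change -0.17, adjusted p = 0.82), with fold changes on either side of 0 depending on the scaling.

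Recruited, monocyte-derived cells were represented by genes near the low end of the table. Ccr2, the chemokine receptor that lets monocytes leave the bone marrow, was 35.2, 11.6, 19.97 and 12.2 in the Con-Veh livers and 7.85, 10.6, 20.4 and 16.3 in the Con-DHT livers. The groups overlapped and Con-Veh 1 was the highest liver (log2 fold change -0.43, SE 0.41, adjusted p = 0.58). Itgam, which encodes CD11b, was 9.89, 17.4, 2.99 and 13.9 in the Con-Veh livers and 8.83, 5.81, 16.3 and 6.52 in the Con-DHT livers. These groups also overlapped (log2 fold change -0.11, SE 0.51, adjusted p = 0.92), the sign turned under spike-in scaling and without single libraries, and a gene model on the same strand, Gm49368, shares 68.7% of its exon bases. These genes had 3 to 32 reads per library, and with SEs of 0.41 and 0.51 a change of the size of the resident median (-0.57) could not be shown.

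Of the 11 genes shared by macrophages in general, 5 fell and 6 did not pass. All 11 had a log2 fold change below 0 (median -0.52), against 10 of 11 under spike-in scaling (median -0.32, 0 called). Their summed level in Con-DHT was 70.9% of that in Con-Veh, against 94.0% for the sum over all genes tested. Lyz2 (ENSMUSG00000069516, chromosome 10), the lysozyme of macrophages and neutrophils, was 569, 605, 693 and 638 in the Con-Veh livers and 412, 389, 437 and 428 in the Con-DHT livers. Both groups were tight and lay well apart, and the gene had the smallest adjusted p of the members, at 66.5% of the Con-Veh level (log2 fold change -0.58, SE 0.08, adjusted p = 0.00255). Lyz1 is a close copy, and reads that match both genes are not unique, so that the level of Lyz2 is uncertain to that extent. Ctss (ENSMUSG00000038642, chromosome 3), the cysteine protease cathepsin S that trims the invariant chain for antigen presentation, was 552, 540.5, 577 and 530.0 in the Con-Veh livers and 438, 350.3, 436 and 375 in the Con-DHT livers. It was lower in every Con-DHT liver, at 72.7% of the Con-Veh level (log2 fold change -0.47, SE 0.09, adjusted p = 0.0128). Cd68 (ENSMUSG00000018774, chromosome 11), the lysosomal glycoprotein used as a general macrophage stain, was 159, 199.8, 196 and 171 in the Con-Veh livers and 109.9, 105, 135 and 123 in the Con-DHT livers. The groups did not overlap (log2 fold change -0.61, SE 0.12, adjusted p = 0.0151). Lyz2, Ctss and Cd68 stayed past the threshold with each library left out, though the adjusted p of Cd68 ranged from 0.017 to 0.0496.

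Fcer1g (ENSMUSG00000058715, chromosome 1) encodes the signalling chain shared by several Fc receptors. It was 75.9, 108, 87.8 and 98.3 in the Con-Veh livers and 61.8, 56.1, 61.2 and 52.2 in the Con-DHT livers, with every Con-DHT liver below every Con-Veh liver (log2 fold change -0.66, SE 0.15, adjusted p = 0.0252), and its adjusted p was 0.0617 to 0.0753 without Con-Veh 2 or 4 or Con-DHT 2 or 4. Mpeg1 (ENSMUSG00000046805, chromosome 19) encodes perforin-2, a pore-forming protein that acts on bacteria inside phagocytes. It was 1154, 1389.8, 1036 and 1105 in the Con-Veh livers and 843, 810.0, 947 and 588 in the Con-DHT livers, again without overlap, and Con-DHT 4 was the lowest liver (log2 fold change -0.57, SE 0.14, adjusted p = 0.0416). It was the least stable of the 11 calls, with an adjusted p of 0.0513 to 0.11 without Con-Veh 1, 2, 3 or 4 or Con-DHT 1, 2 or 4. The receptor for the macrophage growth factors CSF1 and IL-34, Csf1r, was 1094, 1077, 960.3 and 1056 in the Con-Veh livers and 972, 641, 808 and 759 in the Con-DHT livers. Con-DHT 1 lay just above the lowest Con-Veh liver and the test was not passed (log2 fold change -0.41, SE 0.12, adjusted p = 0.0606), while the adjusted p was 0.0286 by DESeq2 and 0.0187 in limma without Con-DHT 1. Part of Csf1r, 15.1% of its exon bases, lies opposite exons of Hmgxb3.

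The other shared genes did not pass. Msr1, the class A scavenger receptor for modified lipoproteins, was 111, 134, 139.8 and 113 in the Con-Veh livers and 116, 79.4, 74.5 and 78.3 in the Con-DHT livers. Con-DHT 1 lay in the Con-Veh range while the other 3 livers of its group lay far below it (log2 fold change -0.53, SE 0.16, adjusted p = 0.0816), and without that library the adjusted p was 0.0259. Aif1, which encodes the IBA1 protein, had groups without overlap at 50.9 to 67.6 in Con-Veh and 30.4 to 47.97 in Con-DHT (log2 fold change -0.52, adjusted p = 0.13). Tyrobp, the adaptor through which TREM2 signals, ranged from 143 to 182 in Con-Veh and 93.9 to 143 in Con-DHT (log2 fold change -0.42, adjusted p = 0.15). Cd14, the co-receptor for bacterial lipopolysaccharide, ranged from 59.2 to 89.04 in Con-Veh and 48.4 to 67.4 in Con-DHT (log2 fold change -0.29, adjusted p = 0.34). Tlr4, the receptor that CD14 serves, ranged from 19.97 to 38.6 in Con-Veh and 23.2 to 28.5 in Con-DHT (log2 fold change -0.14, adjusted p = 0.78), and its sign turned under spike-in scaling.

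Resident and lipid-associated or recruited markers were set against each other liver by liver. The resident score, the mean of log2(value + 1) over 9 genes relative to the Con-Veh mean, was 0.07, 0.14, -0.17 and -0.04 in the Con-Veh livers and -0.22, -0.72, -0.51 and -0.64 in the Con-DHT livers. The lipid-associated score over 10 genes was -0.16, -0.07, 0.25 and -0.02 in Con-Veh and -0.55, -0.64, -0.10 and -0.44 in Con-DHT. Both scores were lower in most Con-DHT livers, without overlap for the resident score and with Con-DHT 3 inside the Con-Veh range for the lipid-associated score. The shared macrophage score over 11 genes lay between -0.06 and 0.13 in Con-Veh and between -0.62 and -0.34 in Con-DHT. The resident minus lipid-associated and recruited difference was 2.80, 2.85, 2.40 and 2.65 in the Con-Veh livers and 3.01, 2.60, 2.18 and 2.45 in the Con-DHT livers. The group means were 2.68 ± 0.20 and 2.56 ± 0.35, and their difference of -0.12 was smaller than the pooled SD of 0.28. It stayed within that spread under each alternative scaling, pseudocount and choice of genes that was run and with each library left out, between -0.27 and 0.14, and its sign turned with quantile normalization, without members under a mean of 50 and without Con-DHT 3. Atp6v0d2, at -2.10, had the largest fold change of the 12 lipid-associated and recruited genes, and no choice of genes left it out. How far the difference rests on Atp6v0d2 was therefore not tested. Summed levels in Con-DHT were 67.5% of Con-Veh for the resident genes and 85.4% for the lipid-associated and recruited genes. Genes with many reads weigh most in such sums. The highest and lowest values of each group were spread unevenly over its livers, which was not tested. Con-Veh 2 was the highest of its group in 13 of the 32 members, and Con-Veh 3 was the lowest in 13. Con-DHT 1 was the highest of its group in 16 of the 32 members and in the resident score, Con-DHT 2 was the highest in 0 members and the lowest in 13, and Con-DHT 3 was the highest in 12, among them Trem2, Ccr2 and Itgam.

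**Figure D3:**
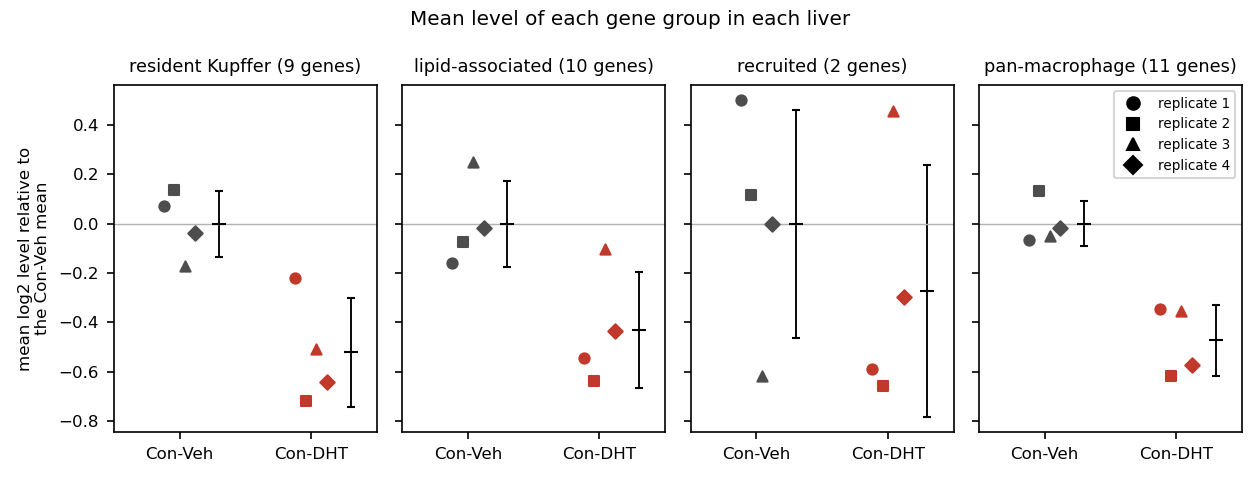
Mean log2(value + 1) of each role's genes in each liver, relative to the Con-Veh mean (vertical axes), for Con-Veh (grey) and Con-DHT (red), with the marker shape giving the replicate number and bars the mean ± SD of 4 livers. The resident and shared scores of the groups are apart, Con-DHT 3 reaches the Con-Veh range in the lipid-associated panel, and the 2 recruited genes scatter widely.

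The start regions of called genes are shown for those with the smallest adjusted p of each role, because their levels were lower in Con-DHT and macrophage genes as a class are known for binding sites of the transcription factor PU.1. In single livers their levels did not run in parallel, with Cd5l and Vsig4 lowest and Lyz2 and Ctss highest in Con-Veh 3. RefSeq windows of 300 bases around the start (GRCm38.p6, 250 bases before and 50 after) were found for 25 member genes, as 28 of 32851 windows. The windows are chr3:87357631-87357930 (+ strand) for Cd5l, chrX:96293389-96293688 (- strand) for Vsig4, chr14:47373610-47373909 (+ strand) for Lgals3, chr10:117282223-117282522 (- strand) for Lyz2 and chr3:95526536-95526835 (+ strand) for Ctss. They are printed 5′ to 3′ in the direction of transcription, and capitals mark the PU.1 core GAGGAA, or TTCCTC where it lies on the other strand.
Cd5l: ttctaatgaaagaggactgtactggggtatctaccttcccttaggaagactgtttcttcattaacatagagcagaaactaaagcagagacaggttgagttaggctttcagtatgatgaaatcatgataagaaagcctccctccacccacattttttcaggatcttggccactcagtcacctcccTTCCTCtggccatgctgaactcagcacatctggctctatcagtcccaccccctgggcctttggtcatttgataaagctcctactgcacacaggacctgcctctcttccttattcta
Vsig4: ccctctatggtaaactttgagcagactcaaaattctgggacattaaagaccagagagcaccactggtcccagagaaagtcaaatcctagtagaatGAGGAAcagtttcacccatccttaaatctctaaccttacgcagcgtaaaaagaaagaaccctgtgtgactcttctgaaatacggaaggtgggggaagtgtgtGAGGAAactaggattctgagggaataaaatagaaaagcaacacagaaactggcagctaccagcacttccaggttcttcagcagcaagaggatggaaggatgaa
Lgals3: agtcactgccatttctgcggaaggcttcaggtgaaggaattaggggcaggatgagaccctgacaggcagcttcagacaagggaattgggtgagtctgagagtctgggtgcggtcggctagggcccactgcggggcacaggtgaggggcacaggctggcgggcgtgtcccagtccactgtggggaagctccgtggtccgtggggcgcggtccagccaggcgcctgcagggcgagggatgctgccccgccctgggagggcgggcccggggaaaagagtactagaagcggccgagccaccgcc
Lyz2: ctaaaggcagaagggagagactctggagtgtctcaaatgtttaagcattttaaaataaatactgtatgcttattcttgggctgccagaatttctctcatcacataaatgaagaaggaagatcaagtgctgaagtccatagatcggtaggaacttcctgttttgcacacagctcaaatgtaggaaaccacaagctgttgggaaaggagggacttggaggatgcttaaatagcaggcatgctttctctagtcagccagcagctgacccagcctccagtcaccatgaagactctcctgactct
Ctss: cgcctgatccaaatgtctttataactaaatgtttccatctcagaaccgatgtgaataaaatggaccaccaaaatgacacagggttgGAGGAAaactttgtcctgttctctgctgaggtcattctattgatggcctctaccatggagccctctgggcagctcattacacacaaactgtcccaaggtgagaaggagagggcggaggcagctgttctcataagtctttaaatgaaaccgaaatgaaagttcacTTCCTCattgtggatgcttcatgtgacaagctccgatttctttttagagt
Cd5l held 1 match, 66 bases before the start, and Vsig4 held 2, at 155 and 53 bases before it. Ctss held 2, of which the one on the other strand begins at the start itself, and Lgals3 and Lyz2 held 0. Searched on both strands, the core was in 13 of the 28 member windows (46.4%) and in 28.3% of all windows. Of the 10 called genes with a window, 4 held it. TGCTGA, which is only a part of the recognition motif of MAF factors, was in 8 member windows (28.6%, against 19.5% of all windows), and in the windows of 6 of the 10 called genes. The E-box CACGTG, which lysosomal gene regulators of the TFE family read, was in 1 member window (3.57%, against 7.15%). A match describes these letters in this window and is not evidence of binding.

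Per kilobase of exon, the levels of the 32 genes in Con-Veh livers were spread widely. The highest level was that of Ctsd, at 1779.7 ± 38.5 normalized read counts per kb, followed by Cd5l at 1359 ± 181 and Clec4f at 937 ± 94.2, each apart from the next by more than their SDs. Spp1 at 481 ± 37.2 and Lyz2 at 476 ± 39.8 did not differ beyond their spread, and Ctss (405 ± 14.9) and Vsig4 (312 ± 12.3) came next. Most of the neighbours farther down, from Folr2 (117 ± 9.93) through Cd163 (74.2 ± 21.7), did not differ beyond their spread. The lipid-associated receptor Trem2 was at 6.54 ± 1.06 per kb, Gpnmb at 3.21 with an SD above its mean, Ccr2 at 2.92 ± 1.63 and Itgam at 2.199 ± 1.23. In Con-DHT livers the first 9 genes kept this order, and Atp6v0d2 moved from place 22 to place 26. The resident markers Cd5l, Clec4f and Vsig4 stood far above Trem2, Gpnmb, Itgax and Ccr2 in both groups.

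**Figure D4:**
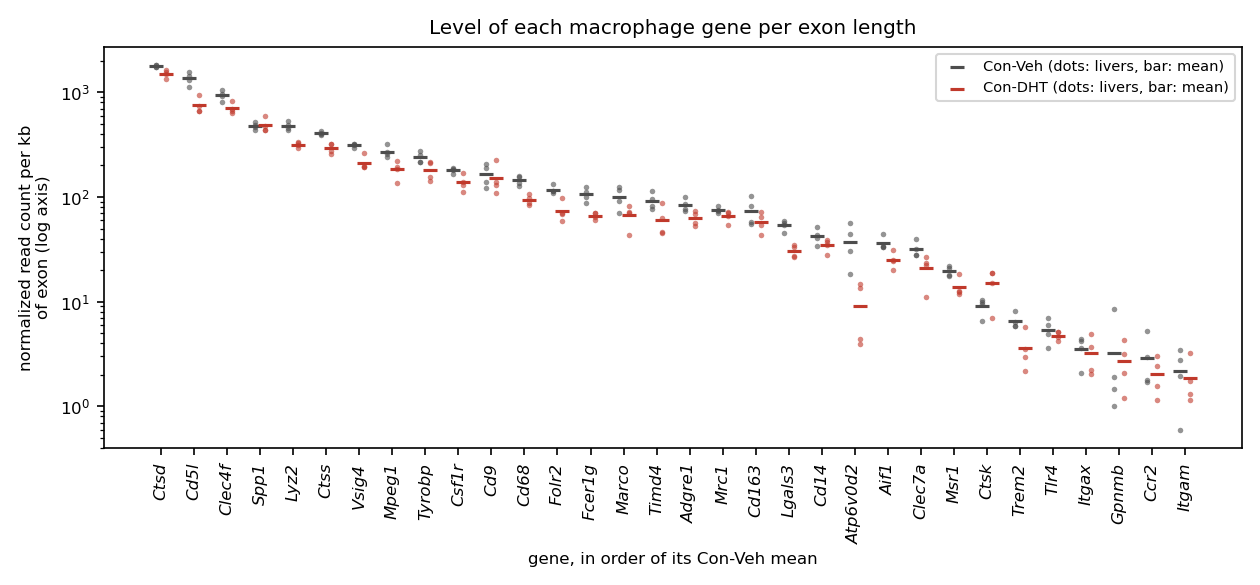
Normalized read count per kilobase of exon of the 32 macrophage genes (vertical log axis), in order of their Con-Veh mean, for Con-Veh (grey) and Con-DHT (red). Dots are livers and bars are means of 4. The Con-Veh means run from Ctsd to Itgam, and the red bars lie under the grey ones for all genes but Spp1 and Ctsk.

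Other genes known from Kupffer cells were also lower in Con-DHT livers. Of the 26 examined, 12 fell, 0 rose and 14 did not pass, with a median log2 fold change of -0.47. In this and the following lists, values in brackets are log2 fold changes with limma's adjusted p. Over all genes tested, limma called 2.61% lower and 4.60% higher, and DESeq2 called 4.51% lower. The genes of the complement component C1q, which tissue macrophages supply, fell together, as C1qa (-0.51, adjusted p = 0.00982), C1qb (-0.49, adjusted p = 0.0126) and C1qc (-0.41, adjusted p = 0.0186). The interferon regulatory factor genes Irf7 (-0.71, adjusted p = 0.00595) and Irf8 (-0.67, adjusted p = 0.0335) fell, and so did Siglec1, the sialoadhesin of resident macrophages (-0.50, adjusted p = 0.011). Vcam1 (-0.75, adjusted p = 0.00844), an adhesion molecule of Kupffer and endothelial cells, Il18bp (-0.72, adjusted p = 0.0163), which neutralises IL-18, and Hmox1 (-0.56, adjusted p = 0.0211), which breaks down haem, fell too. The high-affinity Fc receptor gene Fcgr1 (-0.79, adjusted p = 0.0187), the NAD-consuming ectoenzyme gene Cd38 (-0.48, adjusted p = 0.0492) and Gas6 (-0.88, adjusted p = 0.0455), the ligand of the efferocytosis receptors AXL and MERTK, completed the 12. The iron exporter gene Slc40a1 (-0.47, adjusted p = 0.095), Clec1b (-0.37, adjusted p = 0.10), Axl (-0.27, adjusted p = 0.12) and the haem-induced factor Spic (-0.72, adjusted p = 0.13) were next by p and did not pass, of which DESeq2 called Slc40a1 (adjusted p = 0.0444). Irf8 and Cd38 were called in 1 of the 8 fits with a library left out and Gas6 in 2, and under spike-in scaling 0 of the 26 were called and 20 of 26 were below 0.

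Several lysosomal enzyme genes were lower as well. Of 34 genes of the lysosome and its proton pump, 7 fell and 0 rose, where 2.61% of all genes were called lower and 4.60% higher. The list's median of -0.11 turned to 0.09 under spike-in scaling, where 0 were called. Among the genes that fell were the protease genes Ctsc (-0.99, adjusted p = 0.00899), Ctsb (-0.46, adjusted p = 0.02), Ctsz (-0.44, adjusted p = 0.0262) and Ctsa (-0.29, adjusted p = 0.0453), the cholesterol carrier gene Npc2 (-0.44, adjusted p = 0.00955) and the progranulin gene Grn (-0.57, adjusted p = 0.0357). Ctsc and Npc2 were called in all 8 fits with a library left out, Ctsb in 5, Ctsz and Grn in 2 and Ctsa in 1, and edgeR did not call Ctsa (adjusted p = 0.0626). Hexa (-0.31, adjusted p = 0.0845), Atp6v0a1 (0.21, adjusted p = 0.13), Psap (-0.20, adjusted p = 0.15) and Gaa (-0.19, adjusted p = 0.21) were next by p and did not pass, of which DESeq2 called Psap (adjusted p = 0.0185). Of the other proton pump subunits in this list none passed, including Atp6v0d1 (0.06, adjusted p = 0.61, chosen after its value was seen), the widely expressed isoform of the subunit whose d2 isoform is among the called members. Most of these genes are also expressed by hepatocytes.

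Genes tied to lipid handling in macrophages, beyond the members, went in both directions. Of 19 tested of 21, Capg (1.04, adjusted p = 0.00131), which caps actin filaments, and Anxa2 (0.97, adjusted p = 0.000563), a calcium-dependent membrane-binding protein, rose, and the cholesterol exporter gene Abcg1 (-0.49, adjusted p = 0.0457) fell. The shares over all genes were 2.61% called lower and 4.60% called higher. Capg went from 79.6 ± 10.8 to 164 ± 12.6 and Anxa2 from 196 ± 17.2 to 386 ± 38.5, without overlap, and both were called with each library left out and under spike-in scaling. Abcg1 was called in 1 of the 8 fits with a library left out. The fatty acid transporter gene Cd36, which hepatocytes also express, went from 2468 ± 357 to 1462 ± 634 with overlapping groups (log2 fold change -0.84, adjusted p = 0.0783), and DESeq2 called it lower (adjusted p = 0.0317). Cstb (-0.24, adjusted p = 0.0899), Fabp4 (0.52, adjusted p = 0.15) and Cd63 (0.39, adjusted p = 0.25) did not pass. The median of this list was -0.11, and 0.09 under spike-in scaling, and DESeq2 called 3 of its genes lower and 2 higher.

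Among chemokine, cytokine and growth factor genes, Il18, a cytokine of the inflammasome pathway that Kupffer cells make, fell from 126 ± 13.9 to 75.1 ± 14.3 (log2 fold change -0.76, adjusted p = 0.0186) and was the 1 called gene of 14 tested of 23. Over all genes tested, 7.21% were called in either direction, and 1 of 14 did not stand out from that share. Cxcl16 (-0.56, adjusted p = 0.0786), Cxcl14 (0.82, adjusted p = 0.096), Ccl9 (-0.54, adjusted p = 0.11) and Cx3cl1 (0.70, adjusted p = 0.12) did not pass, Cxcl14 and Cx3cl1 had higher means in Con-DHT, and DESeq2 called Cxcl16 (adjusted p = 0.0481). Of 18 monocyte and phagocyte genes tested of 23, 4 fell, where 2.61% of all genes were called lower. Among the 4 were Ms4a6c (-0.96, adjusted p = 0.0216), the NADPH oxidase subunit gene Cyba (-0.67, adjusted p = 0.0357) and Plac8 (-0.78, adjusted p = 0.0412). S100a6, a calcium-binding protein of many cell types, rose from 36.9 ± 6.59 to 96.2 ± 24.3 (1.34, adjusted p = 0.00452) and was called in every fit with a library left out. The monocyte marker Ly6c2 went from 15.1 ± 4.85 to 5.87 ± 1.88 with overlapping groups (-1.21, adjusted p = 0.0772), and Cybb (-0.59, adjusted p = 0.056), Coro1a (-0.47, adjusted p = 0.0684) and Cd52 (-0.67, adjusted p = 0.0693) did not pass, of which DESeq2 called Cybb (adjusted p = 0.0164). With a library left out, Plac8 was called in 1 of 8 fits, Cyba in 2, Ms4a6c in 3 and Il18 in 5. DESeq2 called 6 of the 18 monocyte and phagocyte genes lower and 1 higher.

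**Figure D5:**
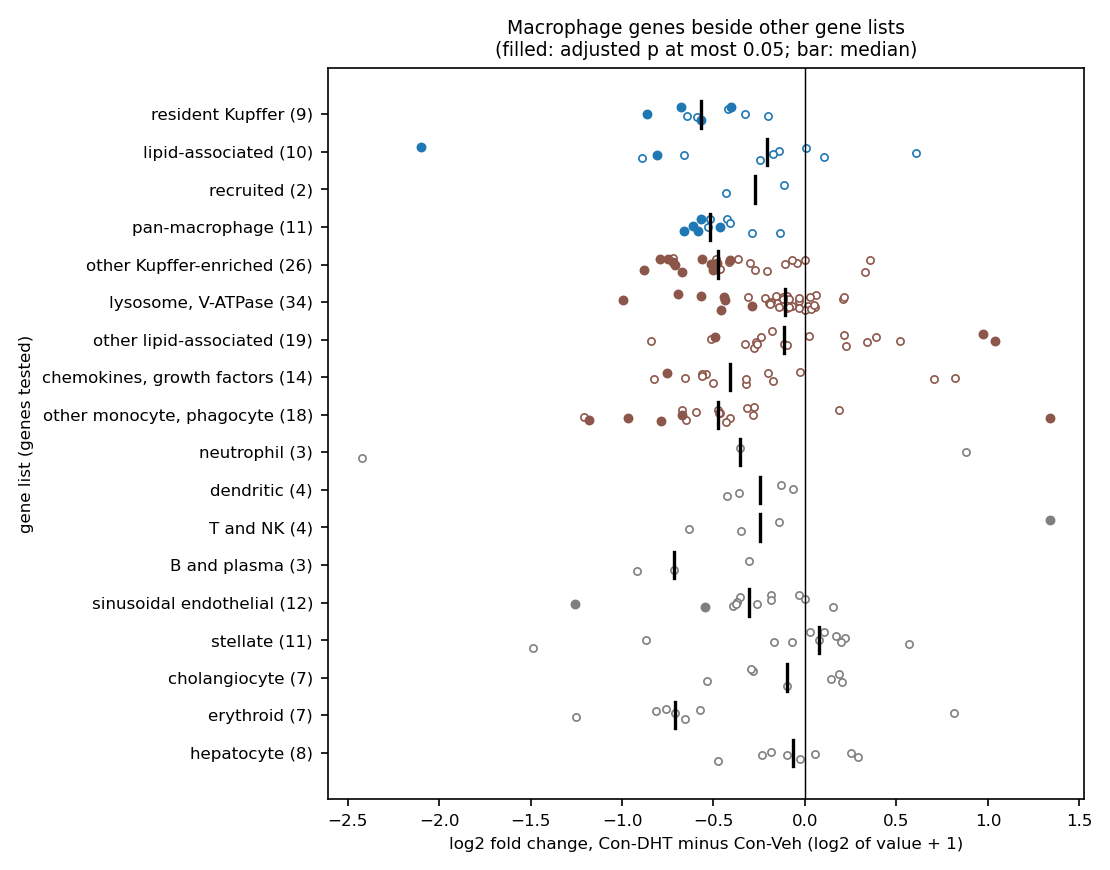
Log2 fold change, Con-DHT minus Con-Veh on the log2(value + 1) scale (horizontal axis), of each tested gene of the macrophage roles (blue), of other macrophage and lysosome lists (brown) and of markers of other liver cells (grey), with the number tested in brackets. The vertical scatter within a list has no meaning. Filled circles have an adjusted p of at most 0.05 and bars are medians, which are -0.57 for the resident markers and -0.47 for the other Kupffer genes, and, for markers of other cells, -0.72 for B and plasma cells, -0.71 for erythroid cells, -0.31 for endothelial cells and -0.06 for hepatocytes.

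Markers of other liver cells were read from the same fit. Of all 14312 genes tested, 3321 had an unadjusted limma p under 0.05. By limma 2.61% were called lower and 4.60% higher, and 6.62% had every Con-DHT liver below every Con-Veh liver. Of the 12 sinusoidal endothelial markers, the scavenger receptor gene Stab2 (-0.55, adjusted p = 0.0176) and the hyaluronan receptor gene Lyve1 (-1.26, adjusted p = 0.0387, overlapping groups) fell, and the median was -0.31. Below 0 were 10 of the 12, and 6 had an unadjusted limma p under 0.05. In 3 every Con-DHT liver was below every Con-Veh liver. DESeq2 called 3, all lower, the third being Oit3 (adjusted p = 0.0341). Lyve1 was called in 2 of the 8 fits with a library left out and not by edgeR (adjusted p = 0.0518). The endothelial markers' summed level was 6024 to 6950 in Con-Veh and 4909 to 5991 in Con-DHT, without overlap, and its part in the macrophage results was not tested. Of the 8 hepatocyte markers, limma called 0, with 0 at an unadjusted p under 0.05, edgeR 0 and DESeq2 1 (Apob, higher, adjusted p = 0.0466), and the median was -0.06, which turned to 0.14 under spike-in scaling and to 0.03 when the reads outside the Mup genes, which encode abundant urinary proteins, were brought to the same total. Of the 11 stellate cell markers (median 0.08), limma, edgeR and DESeq2 called 0, 1 had an unadjusted p under 0.05, and under spike-in scaling Col1a1 was called lower (adjusted p = 0.00234). Of the 7 tested cholangiocyte markers (median -0.10, and 0.09 under spike-in scaling), limma, edgeR and DESeq2 called 0, with 0 at an unadjusted p under 0.05. Of the 7 erythroid genes (median -0.71), limma and edgeR called 0, with 3 at an unadjusted p under 0.05, and summed levels were 4811 to 11659 in Con-Veh and 4399 to 8891 in Con-DHT. The erythroid gene Alas2 had a log2 fold change of 0.81, opposite in sign to the other 6, and was called higher by DESeq2 (adjusted p = 0.0181) and under spike-in scaling (adjusted p = 0.0182). Blood leukocyte markers were sparse. Of 14 neutrophil markers 3 were tested (summed level 70.9 to 132 in Con-Veh and 52.1 to 75.0 in Con-DHT), and limma and edgeR called 0, with 1 at an unadjusted p under 0.05. That gene, Prtn3 (log2 fold change -2.42), was called lower by DESeq2 (adjusted p = 0.00195) and under spike-in scaling. Of 9 dendritic cell markers 4 were tested (161 to 214 and 146 to 185), and limma, edgeR and DESeq2 called 0, with 0 at an unadjusted p under 0.05. Of 9 B and plasma cell markers 3 were tested (97.8 to 114 and 58.1 to 80.4, without overlap, median log2 fold change -0.72), and the same tools called 0, with 2 at an unadjusted p under 0.05. Of 12 T and NK cell markers 4 were tested (56.6 to 67.1 and 52.3 to 87.8), and Cd4 alone passed. Oit3, Apob, Col1a1, Alas2 and Prtn3 are named after their values were seen, and the part of these other cells in the macrophage results was not tested.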

How the data were processed

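Libraries were made from liver RNA, 1 for each of the 4 Con-Veh and 4 Con-DHT mice, with a kit that does not mark strand. Per the submitters' processing notes the authors used Trimmomatic, STAR, featureCounts and DESeq2 with GRCm39. The deposited values are a signal per gene that the authors scaled by a library size factor, with no feature under 81 reads over the 8 libraries. Dividing by the smallest step of a column gave whole reads for 100% of values (within 0.01 of a read), and these recovered reads were used where a test needs counts.

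Groups and replicate numbers came from the labels. Libraries of a group differed by more than sampling noise (chi-square per degree of freedom 19.5 to 62.9 over 12 pairs), so that each counted as a replicate. Because the values are normalized, log2(value + 1) was tested with limma 3.58.1 (intensity trend) in R 4.3.3 for the 14312 genes whose mean reached 10, and genes with a Benjamini-Hochberg adjusted p of at most 0.05 were called. Adding 1 before the log understates the change of low genes. The p-values measure the spread between these mice only. The test was tried on simulated data first. Alternatives were pseudocounts of 0.1 and 5, a minimum mean of 50 or none, no trend, array weights, quantile normalization, an equal total without the Mup genes, spike-in scaling, a replicate block, edgeR 4.0.16 (1024 genes called) and DESeq2 1.42.0 (1569 genes called) on the recovered reads, and leaving out each library.

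The members and lists were chosen with earlier results of these data known. All 32 measured members are described. Of the other macrophage lists every called gene is named, apart from items that are not reported here, and otherwise at most 4 genes with the smallest p, and of the marker lists the called genes. Exon lengths and overlaps came from GENCODE M21 (GRCm38), and start regions from RefSeq (GRCm38.p6), neither of them the build of the files, so no coordinates were carried over. Intervals for counting error are not given, and the floor of 3 reads covers counting error only. Summaries and plots used Python 3.11.15, pandas 2.3.3 and matplotlib 3.10.9.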

Additional observations from a re-analysis of the deposited data

Results flagged for a closer look

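In 7 of 128 groups of 4 livers (5.47%) the highest or lowest liver stood apart, its gap to the nearest of the others divided by the group's whole range, being above Dixon's 95% critical value. Chance alone gives about 1 in 20 groups. Con-DHT 1 stood above the rest of its group for Vsig4, at 389 against 287 to 295, and for Msr1, at 116 against 74.5 to 79.4. Con-Veh 3 stood above its group for Gpnmb, at 54.9 against 6.596 to 12.5. Con-Veh 2 stood above its group for Aif1, at 67.6 against 50.9 to 51.7, and for Gas6, at 3185 against 1426 to 1575. Con-Veh 4 was the high liver for Plac8, at 113 against 78.2 to 80.9. Con-DHT 4 was the low liver of its group for Cd38, at 100.01 against 123 to 128.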

How the results depend on the processing

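The 11 called members kept their direction in all alternatives and in all 8 fits that left out a library. Lyz2, Cd5l, Lgals3, Vsig4, Ctss and Cd68 were called in each of those 8 fits. The number of members called ranged from 6 to 12 over them, with 6 or 7 without Con-Veh 1, 2 or 4 or Con-DHT 2 or 4. It was 1 with spike-in scaling, 8 without the intensity trend, 9 with an equal total without the Mup genes and 13 with DESeq2. Of all genes, 1032 were called (374 lower), against 648 with a mean of at least 50, 637 (75 lower, 562 higher) with spike-in scaling, 1290 (208 lower) without the Mup genes, 1569 with DESeq2 and 633 to 905 with a library left out. Of the 111 genes of the other macrophage lists 28 were called (25 lower, 3 higher), against 17 (13 lower, 4 higher) without the Mup genes, 3 (0 lower, 3 higher) with spike-in scaling and 13 to 24 with a library left out. The cause of these differences was not tested. The sign turned for 6 members that were not called. These were Gpnmb (-0.068 with quantile normalization, -0.26 with edgeR, -0.26 with DESeq2, and -0.25 to 0.71 with a library left out), Spp1 (-0.033 with array weights, and -0.10 to 0.057 with a library left out), Itgax (0.0051 with spike-in scaling, and -0.40 to 0.0017 with a library left out), Itgam (0.052 with spike-in scaling, and -0.58 to 0.16 with a library left out), Cd9 (0.055 with spike-in scaling) and Tlr4 (0.054 with spike-in scaling).

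The replicate numbers are shared between the groups but stand for different mice, and same-numbered livers did not deviate together (correlations -0.19 to -0.0060, with 0 of 8 libraries correlating best with their own number). With the replicate block 7 members were called, all lower, and 700 genes in all. The sign of Itgam, Gpnmb, Itgax and Spp1 and the calls of Trem2, Timd4, Csf1r and Msr1 changed with single livers left out. Low read numbers and spread between mice were not separated.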

Other observations

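Cd4 was the called gene of the T and NK cell markers and was higher in Con-DHT. Its normalized read count was 9.89, 10.6, 10.98 and 13.9 in the Con-Veh livers and 32.4, 25.2, 28.6 and 34.8 in the Con-DHT livers, without overlap (log2 fold change 1.34, SE 0.23, adjusted p = 0.00665 by limma), and it was called in all 8 fits with a library left out. The other tested T and NK cell markers, Gzma (-0.64, adjusted p = 0.36), Il2rb (-0.35, adjusted p = 0.54) and Lck (-0.14, adjusted p = 0.92), did not pass, so that the higher Cd4 was not accompanied by a call in those genes.

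The sinusoidal endothelial gene Stab2 had normalized read counts of 1752, 1519, 1440.5 and 1733 in the Con-Veh livers and 1026, 1109, 955 and 1347 in the Con-DHT livers, and every Con-DHT liver was below every Con-Veh liver. Lyve1 was 136, 216, 239 and 216 in the Con-Veh livers and 52.98, 59.03, 153 and 94.6 in the Con-DHT livers, with Con-DHT 3 inside the range of Con-Veh. The collagen gene Col1a1 of stellate cells was 203, 109, 689.8 and 97.5 in the Con-Veh livers and 97.1, 51.3, 40.8 and 115 in the Con-DHT livers and did not pass in limma (log2 fold change -1.48, SE 0.57, adjusted p = 0.15), but it was lower past the threshold under spike-in scaling (log2 fold change -1.29, adjusted p = 0.00234). These genes were singled out after their values were seen, apart from Cd4, Stab2 and Lyve1, which the naming rule takes.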
